A study of Mus musculus with 4 samples.

Results

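Keratin-associated proteins were examined here as a family, through the 55 genes of the deposited table whose symbol begins with Krtap. They were taken from 17037 genes that held tags and were kept for analysis, and were grouped by chromosome and by the subfamily number in the symbol. Of the 55, 24 lie on chromosome 16, 23 on chromosome 11, 3 each on chromosomes 7 and 10, and 2 on chromosome 1. GENCODE M21 lists 58 Krtap genes, and the other 3 (Krtap13, Krtap5-1 and Krtap5-5) were not analysed here. Capped RNA 5′ ends were counted by cap analysis of gene expression (CAGE), so the number of tags of a gene does not depend on the length of its transcript. The 4 libraries form 1 group: lesional facial skin of C57BL/6 mice at postnatal day 28, with the genotype Nectin-cre(+);Ikk2FL/FL;Postn-/-. In this dermatitis model (FADS) a Cre transgene deletes the kinase gene Ikk2, and these mice also lack periostin, with the Cre named as Nectin-cre in the labels. Every library carries all these alleles, so there is no healthy skin and no Postn-bearing control, and comparisons are between loci, genes and single libraries. The sample codes of libraries 1 and 2 share a number, and those of libraries 3 and 4 share another. The labels explain neither these numbers nor whether each skin came from its own animal; a p-value here therefore concerns variation among 4 samples and may reflect technical variation alone.

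Keratin-associated proteins form the matrix in which the keratin filaments of the hair shaft are embedded, and disulfide bonds link them to the hair keratins. Their genes are short, lie in clusters of close relatives, and are transcribed late in the differentiation of hair cortex and cuticle cells, during the growth phase of the hair cycle. The proteins are sorted by composition into high glycine-tyrosine, high sulfur and ultra-high sulfur types. Families such as Krtap6, Krtap8 and Krtap19 are known as glycine-tyrosine proteins, and Krtap5 and Krtap10 as sulfur-rich proteins found mainly in the hair cuticle.

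The DNA just before the RefSeq start of 7 members is shown because their levels span the range of the family. First comes the most abundant member with a RefSeq promoter window on each chromosome. Then come the members with the largest and the smallest range between libraries on the TMM-scaled log2(CPM + 1) scale. Each line gives 80 bases on the strand of the gene, 5′ to 3′, from RefSeq on GRCm38.p6, with every TATAA in capitals. Each stretch ends at the base before the RefSeq start, except for Krtap19-1, where it ends upstream of that start. Tags can start within the printed bases. The stretches of Krtap15, Krtap3-1, Krtap28-13 and Krtap19-1 end inside the cluster with most tags of the gene, and that of Krtap10-4 lies wholly inside it. For Krtap5-4 this cluster lies further downstream, at 142303527-142303536, so the bases just before its tags are not shown. The stretches are, in order, chr16:88828929-88829008 (plus strand), chr11:99566631-99566710 (minus), chr10:77827071-77827150 (minus), chr7:142303422-142303501 (plus), chr1:83060850-83060929 (plus), chr16:88869441-88869520 (minus) and chr11:99809897-99809976 (minus).
Krtap15: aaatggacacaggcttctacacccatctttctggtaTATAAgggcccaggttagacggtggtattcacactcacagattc
Krtap3-1: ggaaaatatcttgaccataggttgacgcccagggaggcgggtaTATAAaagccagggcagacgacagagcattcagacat
Krtap10-4: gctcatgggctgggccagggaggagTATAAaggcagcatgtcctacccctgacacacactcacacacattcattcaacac
Krtap5-4: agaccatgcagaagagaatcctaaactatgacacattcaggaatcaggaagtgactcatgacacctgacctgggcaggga
Krtap28-13: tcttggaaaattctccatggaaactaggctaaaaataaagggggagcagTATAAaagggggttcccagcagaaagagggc
Krtap19-1: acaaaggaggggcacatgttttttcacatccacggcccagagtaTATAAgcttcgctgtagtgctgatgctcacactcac
Krtap4-13: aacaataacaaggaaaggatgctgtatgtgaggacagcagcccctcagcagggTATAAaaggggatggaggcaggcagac

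TATAA is the core of the TATA box, the element that positions transcription at sharply defined starts. RefSeq windows of 250 bases before to 50 bases after the start were matched by symbol for 48 members. TATAA on the gene's own strand, wholly within bases 45 to 16 before the RefSeq start, was found in 36 of the 48 (75%), against 3.89% of 32544 windows of all genes. By locus it was found in 19 of 21 windows on chromosome 11, 14 of 22 on chromosome 16, 2 of 3 on chromosome 7, 1 of 1 on chromosome 1 and 0 of 1 on chromosome 10. These bases were set by RefSeq starts, not by the tags. The chromosome 10 window, of Krtap10-4, holds TATAA further upstream, as its line above shows. The TATAA printed for Krtap19-1 on chromosome 16 also lies upstream of the counted bases, and its main cluster lies before the RefSeq start. The counts by locus therefore do not show how many genes lack TATAA near their tags. TATAAA, anywhere in the window and on either strand, was found in 39 of 48 windows (81.2%) against 13.6% of all windows; it contains TATAA, so these counts overlap. GGGGCGGGG on either strand, a long form of the GC box, was found in 0 of 48 windows against 11.5% of all. Shorter forms were not searched. CTTTGAA on either strand, which the hair factor Lef1 and its relatives can bind, was found in 9 of 48 (18.8%) against 5.15%. A match is a stretch of letters, not a shown binding site.

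The tags of the family started in narrow clusters at annotated starts. The cluster with most tags of each gene was on the strand of the gene for 55 of 55 members and within 100 bp of a GENCODE start for 54. It held at least 95% of the gene's tags in 54 members, and 28 members had no other cluster. Its median width was 15 bp (range 6 to 196), against 125 bp for the main clusters of 14679 other genes of at least 1 CPM. Widths up to 20 bp were found for 58.2% of members and 4.40% of the other genes. The exception in position was Krtap9-1, whose 7 tags in all lay 659 bp after its annotated start. Krtap14 and Krtap15 overlap on opposite strands in the annotation, at chr16:88818667-88826145 and chr16:88820215-88829844, and each main cluster lay on the strand of its own gene.

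Together the family held 23284, 22453, 6211 and 3122 CPM (counts per 1e6 tags of the library) in libraries 1 to 4, which is 2.33%, 2.25%, 0.621% and 0.312% of all tags. Libraries 1 and 2 were high and alike, library 3 was far lower, and library 4 was the lowest. These sums rest on 423294, 422647, 109501 and 56009 tags, so counting error is small beside the differences between libraries. Mean levels reached 1000 CPM or more in 4 members and 100 CPM or more in 26. Only Krtap9-1 and Krtap20-2 stayed under 1 CPM, and the other 53 were tested. In 52 of these 53, libraries 1 and 2 were both above libraries 3 and 4; 11.5% of all 14732 tested genes met that pattern. Library 1 was at least 2-fold above library 4 in 50 of the 53, against 1.55% of all tested genes. The median member was 6.03-fold higher in library 1 than in library 4, where the median of all tested genes was 0.946-fold. Library 2 stood at a median of 0.962 of library 1 in the same members, with a range of 0.606 to 1.23. In bulk skin, fewer hair-forming cells and less RNA per cell cannot be told apart.

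**Figure D1:**
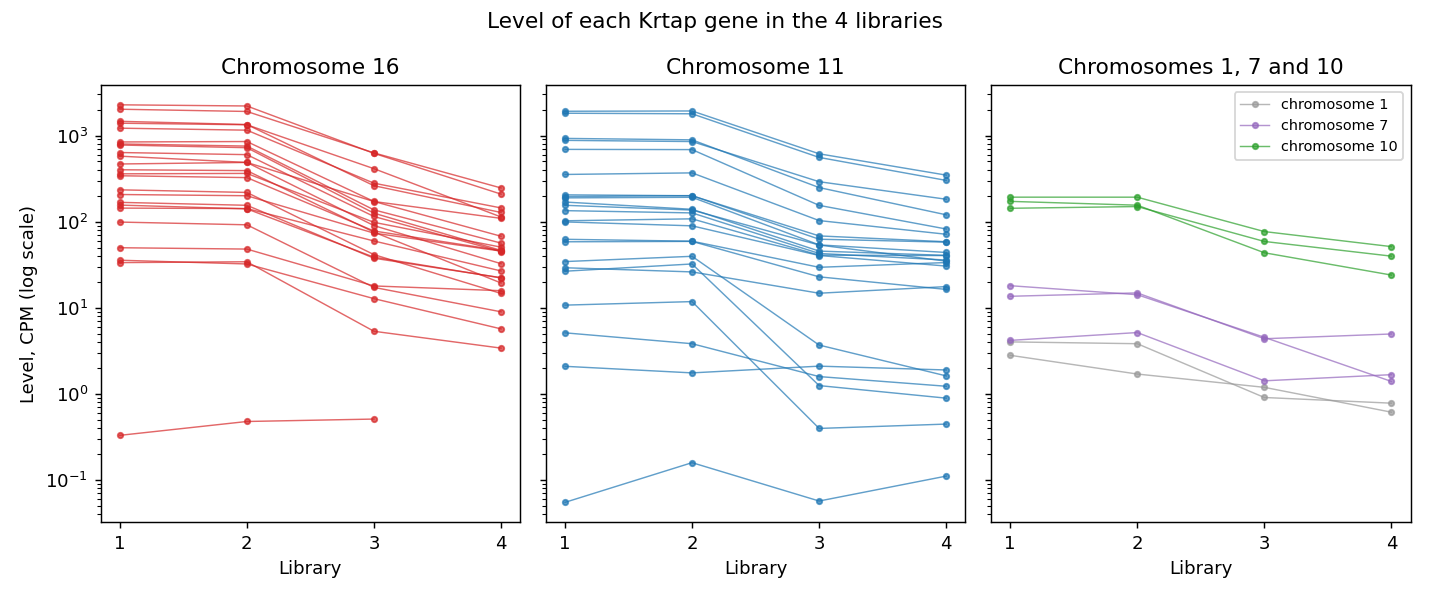
Level of each of the 55 Krtap genes in CPM (vertical axis, log scale) in libraries 1 to 4 (horizontal axis), in panels by chromosome. Points are single libraries and lines join the values of a gene without implying an order of libraries; a value of 0 (Krtap20-2 in library 4) is not drawn. Members of at least 1 CPM were lower in libraries 3 and 4 except Krtap4-13, the level line near 2 CPM on chromosome 11.

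The spread of each gene over the 4 libraries was tested against that of genes of its level (limma, log2(CPM + 1), one-sided, Benjamini-Hochberg over all tested genes). It was called for 18 of 53 tested members, with adjusted p from 0.0297 to 0.0495, against 0.38% of all tested genes. Library 4 was the lowest in all 18 and in 47 of the 53, against 1775 of all 14732 tested genes. By locus, 16 of 23 tested members were called on chromosome 16, 1 of 22 on chromosome 11 (Krtap1-5), 1 of 3 on chromosome 10 (Krtap12-1) and none of the 3 on chromosome 7 or the 2 on chromosome 1. An unadjusted p under 0.05 was found for 51 of the 53, against 6.27% of all tested genes. These calls lay close to the threshold: edgeR on the recovered tags called 2 members (Krtap19-1 and Krtap19-9a, adjusted p = 0.0416 for both) against 0.224% of all genes. Limma called 0 members without library 4 (10 of all genes), 39 without library 3 (111 of all genes), 38 without TMM scaling (104) and 7 without clusters listed under several genes (33). Without 55 genes whose level in library 2 was 5 or more times that in both libraries 1 and 3, it called none of 14677 genes, members included. An unadjusted p under 0.05 was still found for 51 members in both cases of 0.

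Chromosome 16 held the largest share of the family. Its 24 members, between 88610705 and 89571183, summed to 14681, 13978, 3569 and 1479 CPM in libraries 1 to 4. The locus thus stood in library 4 at 10.1% of its level in library 1. Every tested member was lowest in library 4, and the folds between libraries 1 and 4 ran from 3.16 to 20.6 with a median of 9.84.

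Krtap15 was the most abundant member of the family, at 2273, 2203, 621 and 209 CPM (mean 1326 ± 1066 SD, n = 4). Its protein is rich in serine and low in cysteine, which makes up 4.0% of its residues. It was 10.9-fold higher in library 1 than in library 4 (limma adjusted p = 0.0495). Its neighbour Krtap14 stood at 1390, 1333, 412 and 113 CPM, a 12.3-fold difference between libraries 1 and 4 (adjusted p = 0.0495). Krtap7-1, at the other end of the locus, stood at 2020, 1903, 628 and 246 CPM, 8.21-fold apart, and was not called (adjusted p = 0.0655). In all 3 genes libraries 1 and 2 were within a few percent of each other, and library 3 lay between them and library 4.

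The Krtap19 subfamily had 7 members and all 7 were called; 6 encode short glycine-tyrosine proteins, and Krtap19-9a is annotated as a processed pseudogene. Its most abundant member Krtap19-5 stood at 842, 851, 171 and 67.7 CPM (adjusted p = 0.041). Krtap19-1, at 400.3, 391, 75.6 and 19.4 CPM, had the largest range of the family, 4.43 on the TMM-scaled log2(CPM + 1) scale. It was 20.6-fold higher in library 1 than in library 4 (limma adjusted p = 0.0297). The 348 tags of Krtap19-1 in library 4 give an exact binomial 95% interval of 17.4 to 21.6 CPM, far below the 382.5 to 409.6 CPM spanned by the intervals of libraries 1 and 2. Across the subfamily the folds ran from 11.01 (Krtap19-9b) to 20.6. Krtap19-1 and Krtap19-2 share identical stretches of 30 bases in the first 100 bases of their transcripts, as do Krtap19-2 and Krtap16-3 and Krtap19-9a and Krtap19-9b. Tags there may be split between them in ways the table does not show.

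Most other glycine-tyrosine genes of the locus were called as well. Krtap22-2, at 1462, 1342, 261 and 128 CPM, was 11.4-fold apart and Krtap16-3 14.1-fold (adjusted p = 0.0495 and 0.037); all tags of Krtap22-2 lie in clusters also listed under Gm49689, so their origin is uncertain. The 4 Krtap6 genes, also glycine-tyrosine proteins, differed by 7.02- to 9.84-fold, and 3 were called. Their most abundant member Krtap6-5 stood at 359, 363, 98.2 and 50.6 CPM. Krtap6-2, with the smallest range among the 18 called members (2.84, after TMM scaling), stood at 156, 141, 38.7 and 22.2 CPM. The limma adjusted p was 0.0495 for both. Krtap6-1 and Krtap6-5 share identical stretches of 30 bases in the first 100 bases of their transcripts, so tags may be split between them. Krtap8-1, a glycine-tyrosine protein gene, stood at 1217, 1154, 280 and 144 CPM and was called with Krtap21-1 (adjusted p = 0.0495 for both). Krtap20-2 held 6, 9, 9 and 0 tags, too few to compare: the 0 tags in library 4 allow up to 0.167 CPM, 3 tags of that library.

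Genes at the 2 edges of the locus differed least between libraries. In order along the chromosome, the first 4 members (Krtap24-1, Krtap26-1, Krtap27-1 and Krtap13-1) differed by 3.16- to 6.27-fold between libraries 1 and 4, and the last, Krtap11-1, by 5.27-fold. None of these 5 was called (adjusted p from 0.0659 to 0.142), and they were grouped after their values were seen. The 9 members in a row from Krtap19-1 to Krtap22-2 differed by 11.01- to 20.6-fold, all called; this stretch was chosen after its values were seen, and position and protein type go together there, since 8 of the 9 encode glycine-tyrosine proteins and the remaining gene is the pseudogene Krtap19-9a.

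**Figure D2:**
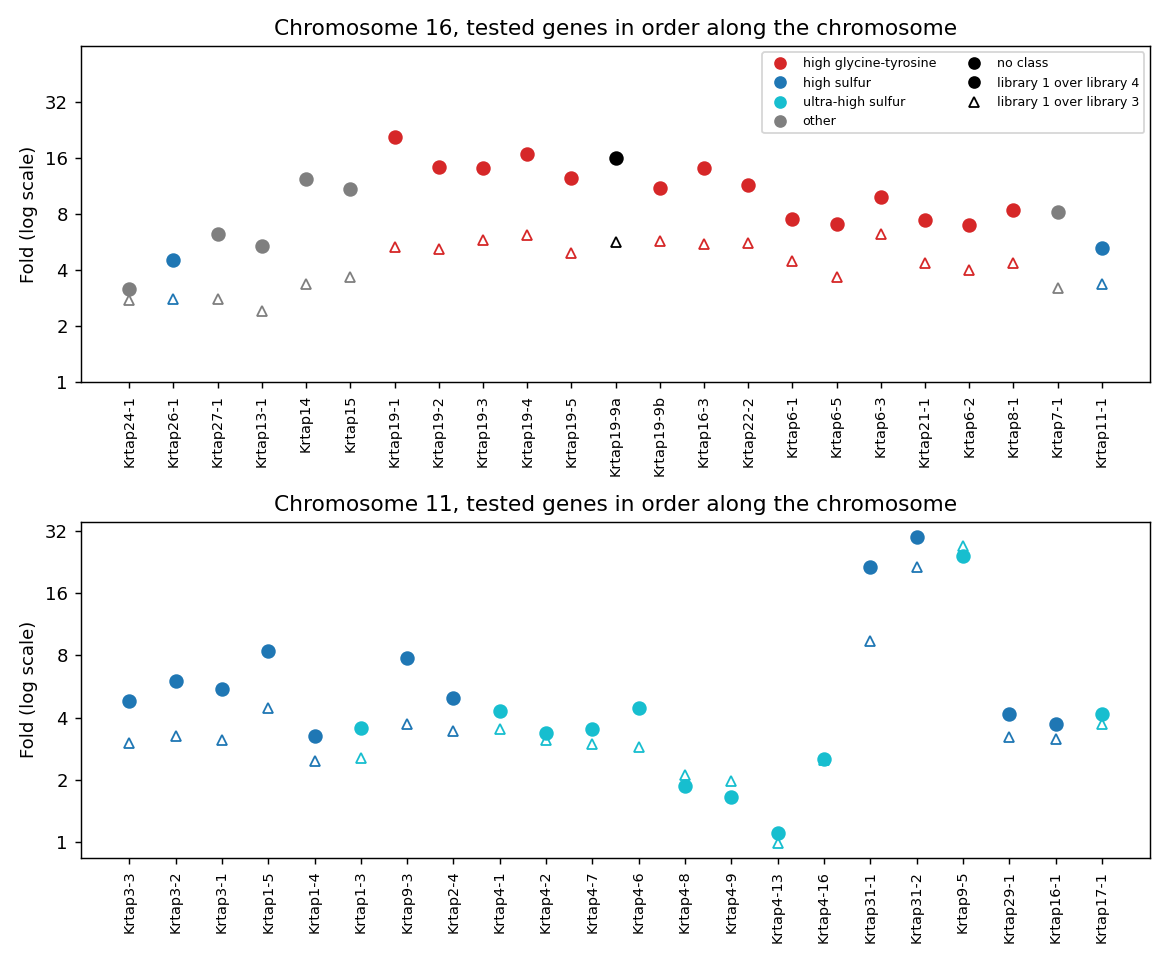
Fold between libraries for the tested genes of chromosomes 16 (top) and 11 (bottom), in order along the chromosome (horizontal axis; spacing is not to scale). The vertical axis is the fold on a log scale; filled circles are library 1 over library 4 and open triangles library 1 over library 3, coloured by protein class. The highest circle on chromosome 16 is that of Krtap19-1, at 20.6, and the highest on chromosome 11 are those of Krtap31-1, Krtap31-2 and Krtap9-5, from 21.3 to 29.8.

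Chromosome 11, in the stretch from 99550130 to 99993994, had almost as many members but smaller differences. Its 23 members summed to 8053, 7938, 2451 and 1519 CPM, and library 4 stood at 18.9% of library 1. The median member differed by 4.24-fold between libraries 1 and 4, and 18 of 22 tested members were lowest in library 4 (1775 of 14732 over all tested genes). Both libraries 1 and 2 were above libraries 3 and 4 in 21 of the 22.

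The Krtap3 genes, small high sulfur proteins at the start of the locus, held most tags. Krtap3-1 stood at 1913, 1928, 613 and 347 CPM (mean 1200 ± 839 SD, n = 4), Krtap3-2 at 1815, 1788, 557 and 301 CPM, and Krtap3-3 at 879, 851, 291 and 182.0 CPM. Their folds between libraries 1 and 4 were close, at 5.52, 6.03 and 4.83, and none was called (adjusted p = 0.0798, 0.0747 and 0.0798). Krtap3-2 shares stretches of 30 bases near its 5′ end with both other genes.

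The Krtap1, Krtap2 and Krtap9-3 genes that follow, and Krtap16-1 and Krtap17-1 at the far end of the locus, encode high and ultra-high sulfur proteins. Krtap1-5, the called member, stood at 690, 686, 155 and 82.1 CPM, an 8.41-fold difference (adjusted p = 0.0495), while Krtap1-4 and Krtap1-3, its 2 relatives, differed by 3.26- and 3.57-fold. Krtap9-3 stood at 926, 891, 249 and 120.0 CPM (7.72-fold, adjusted p = 0.0526). Krtap2-4 was 4.95-fold, Krtap16-1 3.74-fold and Krtap17-1 4.16-fold higher in library 1 than in library 4, none of them called (adjusted p from 0.0649 to 0.0798).

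Among the subfamilies of chromosome 11, the ultra-high sulfur Krtap4 genes had the lowest fold of their sum between libraries 1 and 4, 3.26. Its 8 members summed to 939.8, 923, 325 and 288 CPM, and libraries 3 and 4 were close to each other, with a median fold of 1.09 between them. The most abundant member Krtap4-7 stood at 204.7, 200, 68.3 and 58.4 CPM (adjusted p = 0.0809). Krtap4-8, at 62.4, 59.3, 29.5 and 33.5 CPM, and Krtap4-9, at 29.2, 26.1, 14.7 and 17.6 CPM, differed by less than 2-fold between libraries 1 and 4 (1.86 and 1.66; adjusted p = 0.285 and 0.495). Krtap4-13 was the 1 tested member without the pattern: it held 38, 33, 37 and 34 tags, or 2.09, 1.75, 2.10 and 1.90 CPM (adjusted p = 0.997). Its exact binomial 95% intervals overlap in all libraries, within 1.21 to 2.89 CPM, so no difference was detectable at this depth. Krtap4-7, Krtap4-8 and Krtap4-9 share 5′ stretches with each other, and Krtap4-13 with Krtap4-2 and Krtap4-6. Krtap4-8, Krtap4-9 and Krtap4-13 were singled out after their values were seen.

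At the other extreme, 3 low genes in the distal part of the locus had the highest fold values of the family, on few tags. Krtap31-1 stood at 34.4, 39.6, 3.69 and 1.62 CPM, Krtap31-2 at 26.6, 32.2, 1.25 and 0.892 CPM, and Krtap9-5 at 10.7, 11.8, 0.397 and 0.446 CPM. Libraries 1 and 2 exceeded libraries 3 and 4 in each by about an order of magnitude or more, with folds of 21.3, 29.8 and 24.1 between libraries 1 and 4. In library 4 they rest on 29, 16 and 8 tags, with exact binomial 95% intervals of 1.08 to 2.32, 0.510 to 1.45 and 0.193 to 0.879 CPM. The order of these folds between libraries 1 and 4, and their place above that of Krtap19-1, is therefore within counting error. Between libraries 1 and 3 the folds were 9.32, 21.3 and 27.0, against 5.30 for Krtap19-1, with 65, 22 and 7 tags of the 3 genes in library 3. None of the 3 was called (limma adjusted p = 0.0544, 0.061 and 0.128), and in Krtap9-5 and Krtap31-2 library 3 was close to library 4. These 3 were also chosen after their values were seen, and Krtap31-1 and Krtap31-2 share 5′ stretches.

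At the 3 smaller loci the sums in libraries 1 and 4 differed by 4.41-fold (chromosome 10), 4.46-fold (chromosome 7) and 4.90-fold (chromosome 1), against 5.30-fold on chromosome 11 and 9.93-fold on chromosome 16. On chromosome 10 the cuticle-type genes Krtap10-4 (192, 192, 76.7 and 51.3 CPM) and Krtap10-10 (143, 150, 58.9 and 39.7 CPM) differed by 3.75- and 3.60-fold between libraries 1 and 4. Krtap12-1, a high sulfur gene of the same locus, stood at 172, 155, 43.5 and 24.0 CPM, a 7.17-fold difference, and was called (adjusted p = 0.0495). The locus sum in library 4 was 22.7% of that in library 1.

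Chromosome 7 held the cuticle-type Krtap5 genes at low levels. Krtap5-4 stood at 18.0, 14.2, 4.54 and 1.39 CPM, Krtap5-2 at 13.6, 14.9, 4.37 and 4.96 CPM, and Krtap5-3 at 4.18, 5.15, 1.42 and 1.67 CPM. Krtap5-2 and Krtap5-3 were slightly lower in library 3 than in library 4, while Krtap5-4 was 3.26-fold higher in library 3. Krtap5-4 and Krtap5-2 share 5′ stretches with each other and with Krtap5-1, which was not analysed, so tags may be split between them. On chromosome 1, Krtap28-10 stood at 4.02, 3.83, 0.908 and 0.780 CPM and Krtap28-13 at 2.81, 1.70, 1.19 and 0.613 CPM. None of these 5 genes was called (adjusted p from 0.149 to 0.86).

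The balance between loci therefore differed between libraries. Chromosome 16 made up 63.1%, 62.3%, 57.5% and 47.4% of the family's tags in libraries 1 to 4, and chromosome 11 34.6%, 35.4%, 39.5% and 48.7%. Chromosome 10 made up 2.18%, 2.21%, 2.88% and 3.68%. The log2 ratio of chromosome 16 to chromosome 11 was 0.87, 0.82, 0.54 and -0.04 (mean 0.55 ± 0.42 SD, n = 4). Libraries 1 and 2 had nearly the same ratio, and library 4 alone had nearly equal sums at both loci; without library 4 the mean was 0.74 ± 0.17 (SD, n = 3), and the log2 range of the chromosome 16 sum was 2.04, against 3.31 with it. Since this is a score over chosen members, no p-value is given. The leading gene differed too: Krtap15 was highest in libraries 1 and 2, Krtap7-1 in library 3 and Krtap3-1 in library 4.

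**Figure D3:**
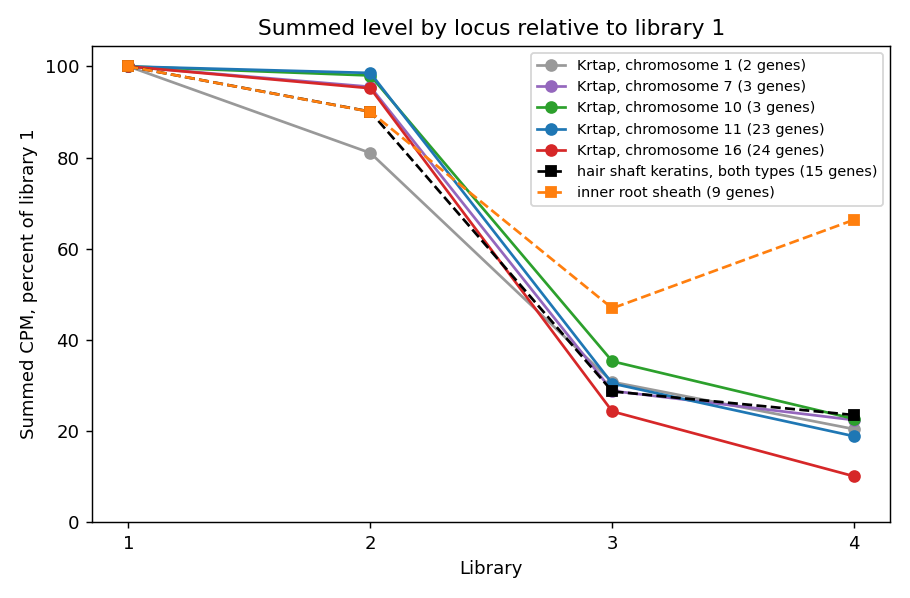
Summed CPM of the Krtap genes of each chromosome, of hair shaft keratins and of inner root sheath genes, as a percentage of library 1 (vertical axis), in libraries 1 to 4 (horizontal axis; lines imply no order). Chromosome 16 is the lowest line in library 4, at 10.1%, the other 4 loci lie at 18.9% to 22.7%, and inner root sheath genes are highest there.

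The difference between libraries also went with the composition of the proteins, computed from the GENCODE coding sequences of 54 members (57 to 502 residues). By thresholds on glycine plus tyrosine and on cysteine, 17 were high glycine-tyrosine, 17 ultra-high sulfur, 14 high sulfur and 6 none of these; the 6 are Krtap7-1, Krtap13-1, Krtap14, Krtap15, Krtap24-1 and Krtap27-1, each under 10% cysteine. The median fold between libraries 1 and 4 was 10.4 for the 16 tested glycine-tyrosine genes, 5.39 for 14 high sulfur genes and 3.67 for 16 tested ultra-high sulfur genes. Glycine-tyrosine genes provided 13 of the 18 calls and ultra-high sulfur genes none. Krtap5-2 and Krtap5-3 fell in the first class by its rule although cysteine also made up 34.6% and 35.1% of their residues, and they had the lowest folds in it, 2.74 and 2.50.

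Protein type and locus are largely the same division, since 15 of the 17 glycine-tyrosine genes lie on chromosome 16. Within chromosome 16 the median was 11.2-fold for 14 tested glycine-tyrosine genes, 7.24-fold for the 6 genes of no class and 4.91-fold for the 2 high sulfur genes. Within chromosome 11 it was 5.52-fold for 11 high sulfur and 3.50-fold for 11 ultra-high sulfur genes. Across 52 genes the log2 fold and the percentage of cysteine had a Pearson r of -0.53 and a Spearman rho of -0.59. The values were -0.46 and -0.62 over 22 genes of chromosome 16, and -0.39 and -0.55 over 22 of chromosome 11. With the percentage of glycine plus tyrosine, r and rho were 0.42 and 0.40 over all 52 genes, 0.57 and 0.34 on chromosome 16, and -0.04 and -0.07 on chromosome 11. With log2 mean CPM they were 0.30 and 0.36 over 53 genes, 0.45 and 0.48 on chromosome 16, and 0.04 and 0.25 on chromosome 11. On chromosome 16 this r was close in size to the r with cysteine, while rho was smaller in size. These correlations describe the same 2 libraries across genes, which are related in sequence and are not independent replicates.

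**Figure D4:**
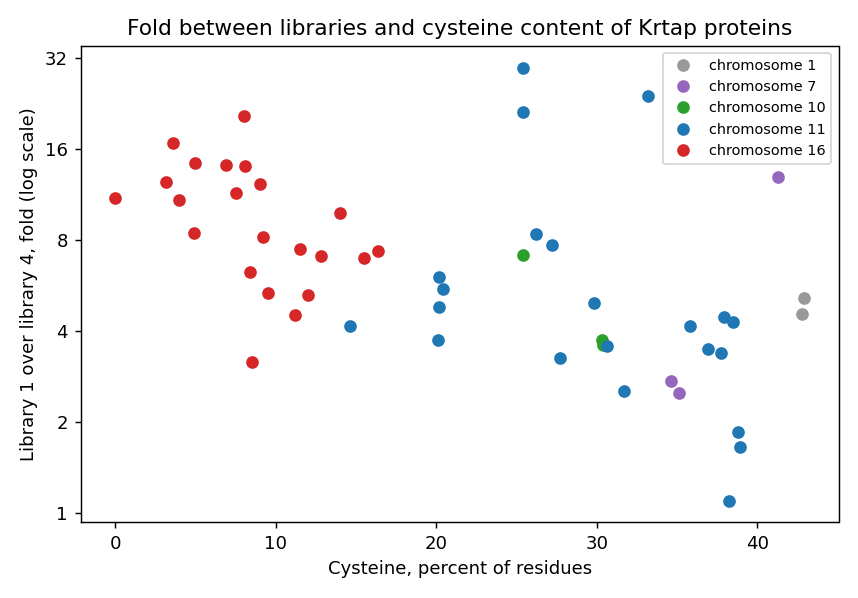
Library 1 over library 4 (vertical axis, fold on a log scale) against cysteine as a percentage of residues (horizontal axis) for 52 tested Krtap genes with a translated sequence, coloured by chromosome. Chromosome 16 genes lie at low cysteine and folds of 3.16 to 20.6; most chromosome 11 genes lie at higher cysteine and lower folds, with Krtap31-1, Krtap31-2 and Krtap9-5 above the rest.

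The partners of these proteins, the hair shaft keratins, were also lower in libraries 3 and 4. Of 16 listed, 15 were found, and they summed to 7723, 6957, 2217 and 1816 CPM. All 15 were higher in both libraries 1 and 2 than in libraries 3 and 4, library 4 was lowest in 13, and 4 were called. Krt33a, a type I hair keratin, stood at 1654, 1478, 435 and 309 CPM, and the type II keratin Krt87 at 1708, 1587, 452 and 337 CPM (adjusted p = 0.0792 and 0.0798). Krt81, a type II keratin of the cortex, was called, at 582, 552, 146 and 82.0 CPM (adjusted p = 0.0495). Krt35, which is made early in the hair cortex, was lowest in library 3, at 1072, 901, 458 and 547 CPM (adjusted p = 0.323).

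Relative to the summed hair keratins, chromosome 16 was low in library 4, and the other loci depended on which keratins were summed. The ratio for chromosome 16 was 1.90, 2.01, 1.61 and 0.814 in libraries 1 to 4. For chromosome 11 it was 1.04, 1.14, 1.11 and 0.837, and for chromosome 10 it was 0.0657, 0.0715, 0.0808 and 0.0633. With Krt35 left out of the keratin sum, an alternative chosen after seeing the data, the ratio for chromosome 16 was 2.21, 2.31, 2.03 and 1.17, so library 4 was again the lowest. For chromosome 11 it was then 1.21, 1.31, 1.39 and 1.20, with libraries 1 and 4 nearly equal, and for chromosome 10 it was 0.0763, 0.0821, 0.102 and 0.0907, with library 4 above library 1. The median fold between libraries 1 and 4 was 5.36 for the 15 hair keratins, between those of chromosome 11 (4.24) and chromosome 16 (9.84). The ranges overlapped: single hair keratins ran from 1.96 to 25.6, chromosome 16 members from 3.16 to 20.6 and chromosome 11 members from 1.10 to 29.8. A fold of at least 8 was found for 1 hair keratin, 14 members on chromosome 16 and 4 on chromosome 11.

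Inner root sheath genes shared the division between libraries with smaller folds. All 9 were higher in both libraries 1 and 2 than in libraries 3 and 4, with an unadjusted p under 0.05 for all 9, but none was called and library 4 was lowest in none. They summed to 10428, 9391, 4895 and 6921 CPM, led by Krt71 at 2765, 2594, 1327 and 2187 CPM and Krt25 at 2297, 2110, 1229 and 1788 CPM. Of 10 crosslinking and medulla enzymes, 8 were higher in both libraries 1 and 2, with a median fold of 2.02 between libraries 1 and 4. They were led by Crym at 339, 306, 147 and 187 CPM and the arginine deiminase Padi3 at 262, 245, 118 and 168 CPM. Of 10 pigment cell genes, 8 showed the same division, with a median fold of 1.60, led by the melanin enzymes Dct at 155, 154, 128 and 134 CPM and Tyrp1 at 92.6, 84.4, 52.9 and 54.9 CPM.

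The list of hair shaft regulators also holds the keratin Krt35, its most abundant gene. The 13 others had a median fold of 1.01, and 5 of the 13 were higher in both libraries 1 and 2, among them Dlx3 (553, 508, 318 and 423 CPM). In the companion layer and outer root sheath list 1 of 7 genes showed that division, and its leading keratins were Krt6b at 1241, 1147, 1885 and 1233 CPM and Krt17 at 1174, 1229, 1397 and 1127 CPM. In the cell division list it was 1 of 10, with Mki67 at 133, 103, 112 and 115 CPM and Top2a at 73.0, 63.1, 61.2 and 74.5 CPM. None of the genes in the crosslinking, pigment, regulator, companion layer and cell division lists was called.

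Other cell types of the skin were high in other libraries. The 10 skeletal muscle genes summed to 3324, 2439, 4065 and 6113 CPM with a range of folds between libraries 1 and 4 of 0.452 to 0.623. None of them was called, though an unadjusted limma p under 0.05 was found for all 10, against 6.27% of all tested genes. They were led by Acta1 at 850, 631, 1016 and 1516 CPM and Tnnt3 at 661, 489, 839 and 1243 CPM. Gland secreted proteins summed to 9.40, 35227, 1.42 and 6085 CPM, and 6 of 8 were called. They were led by Bpifa2 at 4.18, 16004, 0.113 and 4.46 CPM and Mucl2 at 1.93, 9099, 0 and 3369 CPM. Sebaceous gland genes summed to 713, 812, 1449 and 1053 CPM, led by the lipid enzymes Scd1 (363, 412, 844 and 595 CPM) and Fasn (127, 127, 159 and 151 CPM). Suprabasal epidermal genes summed to 9992, 8846, 13563 and 12597 CPM, led by Krt10 (3000, 2609, 3947 and 4347 CPM) and Dmkn (2524, 2360, 3539 and 2880 CPM). No gene of the sebaceous or suprabasal lists was called. The part of muscle, gland or epidermal RNA in the Krtap differences was not tested.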

How the data were processed

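The deposited table gives CPM values for 69391 gene and CAGE tag cluster entries in 4 libraries. The submitters' processing notes name BWA, HISAT2 and the build mm9, but the deposited cluster positions match GRCm38, on which coordinates are given here (GENCODE M21). The sources used here do not state how the authors called clusters. Every CPM value was a whole number of tags within 0.02 tags, and the library totals were 18179860, 18823630, 17630119 and 17939565 tags. At this depth 3 tags, about the one-sided 95% upper limit of a count of 0, correspond to 0.159 to 0.170 CPM. Intervals and limits cover counting error only.

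Entries were summed per gene. From 17849 genes, 33 without tags and 779 that lost 90% or more of their tags were set aside, after each cluster listed under several genes had been given to 1 of them (named before predicted genes, then the gene with more tags). Kept genes retain all their listed clusters. Spread over libraries was tested with limma 3.58.1 (R 4.3.3; log2(CPM + 1), TMM factors 0.931 to 1.05, mean of at least 1 CPM, robust trended prior, one-sided F test, Benjamini-Hochberg over 14732 genes), and the code was tested on simulated data. edgeR 4.0.16 on the recovered tags was an alternative. Ranges of single genes were taken after TMM scaling, and log2 ranges of locus sums without it. Members and gene lists were chosen with earlier results of these data known. Values are given for the 3 members of highest mean per chromosome, the leading member of each subfamily of 3 or more, the called members of largest and smallest range, members without tags in a library, and the 2 leading genes of each list; other choices are marked. Protein composition was translated from GENCODE M21 coding sequences, not taken from RefSeq proteins as planned. High glycine-tyrosine meant at least 35% glycine plus tyrosine and more of these than cysteine, ultra-high sulfur over 30% cysteine, and high sulfur at least 10% cysteine.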

Additional observations from a re-analysis of the deposited data

How the results depend on the processing

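The number of Krtap genes called for their spread depended on the settings. Against 18 of 53 (56 of all genes), limma called 18 (56) with a pseudocount of 0.25, 20 (61) with no minimum level, 38 (104) without TMM scaling and 7 (33) when clusters listed under several genes were left out; edgeR on the recovered tags called 2 (33). Alternatives chosen after seeing the data gave 20 (61) with TMM factors from totals over the kept genes, and 0 (0) without 55 genes whose level in library 2 was 5 or more times that in both libraries 1 and 3. Leaving out 1 library gave 0 to 39 calls: 19 (60) without library 1, 19 (52) without library 2, 39 (111) without library 3 and 0 (10) without library 4. The cause of these differences was not tested. Library 4 also set much of the difference between loci: without it the log2 range of the chromosome 16 sum was 2.04, not 3.31, and that of chromosome 11 1.72, not 2.41, while the log2 ratio of chromosome 16 to 11 had a mean of 0.74 (SD 0.17), not 0.55 (SD 0.42). No paired analysis was possible because the libraries form 1 group. Depth limits Krtap9-1, Krtap20-2 and Krtap4-13, with at most 38 tags in a library, and the folds of Krtap9-5, Krtap31-1 and Krtap31-2, with 8, 29 and 16 tags in library 4.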
